A study of Mus musculus with 5 samples.

Results

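The chromatin modifiers and remodellers described here are 110 of the 14462 rows of a gene expression table, chosen by a rule on gene symbols that uses no measured value. The rule was nonetheless set with earlier results of these data known. They are the lysine demethylases (Kdm), the SET-domain methyltransferases (Kmt and Setd), Polycomb repressive complex 2 (Ezh, Suz12 and Eed), the histone deacetylases (Hdac) and the sirtuins (Sirt). The SWI/SNF-related (Smarc) and CHD remodellers, the bromodomain (Brd) and ARID proteins, the enzymes of DNA methylation (Dnmt and Tet) and the lysine acetyltransferases (Kat) complete the set. RNA was sequenced from lung cells sorted for CD45, a surface protein of leukocytes. The lungs came from mice with tumours that the labels call MC38/MC38, MC38 being a mouse colon adenocarcinoma line. The IR group (2 libraries) came from mice whose MC38 tumours were irradiated, with lungs taken 3 days later, and the ctrl group (3 libraries) carried the same tumours under the label ctrl. Irradiation is described in protocol text that all 5 libraries share, so the treatment label alone separates the groups. Whether ctrl mice were sham-treated, the animals' strain, sex and age, and the number of mice behind a library were not stated in what was used here. The p-values therefore measure only the spread between these libraries, which may be technical.

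Chromatin is set by enzymes that add or remove acetyl and methyl groups on histones and DNA, by proteins that read those groups, and by motors that burn ATP to slide or eject nucleosomes. Most work inside multi-protein complexes, so a catalytic subunit is usually accompanied by scaffold and targeting subunits. In leukocytes these factors are known for holding lineage choices in place and for opening inflammatory genes when a cell is stimulated.

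The values are read counts that the authors scaled between libraries, called scaled counts here. Totals were 7544034 and 8414753 in IR and 7232126 to 7425923 in ctrl, of which the chromatin genes took 1.67% and 1.69% in IR against 1.90% to 2.07% in ctrl. Their summed level was 125767 and 142166 in IR and 141084 to 151782 in ctrl, which overlap. The low percentage in IR replicate 2 thus came with the largest library total. IR replicate 2 stood apart: on the first principal component of all 12777 genes tested it scored 131.4, against -6.16 for IR replicate 1 and -51.7 to -30.4 for ctrl. Over the chromatin genes alone, the median absolute log2 difference was 0.41 between the IR libraries and 0.20 to 0.31 between ctrl libraries. From IR replicate 1 to the ctrl libraries it was 0.32 to 0.41, and from IR replicate 2 it was 0.38 to 0.50. Ptprc, which encodes CD45, had 17369.3 and 27246.5 scaled counts in IR and 15543.0 to 15842.1 in ctrl. The summed level of 13 neutrophil markers was 68369 and 131783 in IR, against 27353 to 48876 in ctrl, and 5 of the 13 were called higher. The summed level of 14 T cell markers was 5854 and 4808 in IR, against 8059 to 9489 in ctrl, and 1 of the 14, Cd3g, was called lower. The 12 B cell markers summed to 19927 and 14041 in IR and 16241 to 28964 in ctrl, and Ebf1 was called lower. The 13 lung epithelial markers summed to 118208 and 57159 in IR and 23065 to 27119 in ctrl, and 2 secretoglobin genes, Scgb1a1 and Scgb3a2, were called higher. Scgb1a1 alone had 103972 and 50989 scaled counts in IR. Without it, a sum taken after seeing the data, the other 12 gave 14236 and 6170 in IR and 3737 to 6749 in ctrl, which overlap. Epcam was below every ctrl library (45.8 and 74.8 in IR, 133.4 to 185.1 in ctrl), and 8 of the 13 overlapped between groups. In the lists for NK cells, alveolar macrophages, monocytes, endothelium and cycling cells, limma called 0 genes, with 2 of 8, 4 of 10, 1 of 8, 1 of 4 and 2 of 11 at an unadjusted p under 0.05. Those for monocytes and endothelium were higher in IR and the rest lower, and 15.0% of all genes had such a p. No marker found in the table was at 0 in all 5 libraries. The sums for neutrophils, monocytes, lung epithelium and 4 leukocyte markers thus lay above every ctrl library in both IR libraries. Those for T cells, alveolar macrophages and cycling cells lay below. Monocyte sums were 17943 and 18148 in IR and 14152 to 17601 in ctrl. Alveolar macrophage sums were 13594 and 12936 in IR and 13914 to 14445 in ctrl. The B cell, NK cell and endothelium sums overlapped. The part of cell markers in the chromatin results was not tested.

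**Figure D1:**
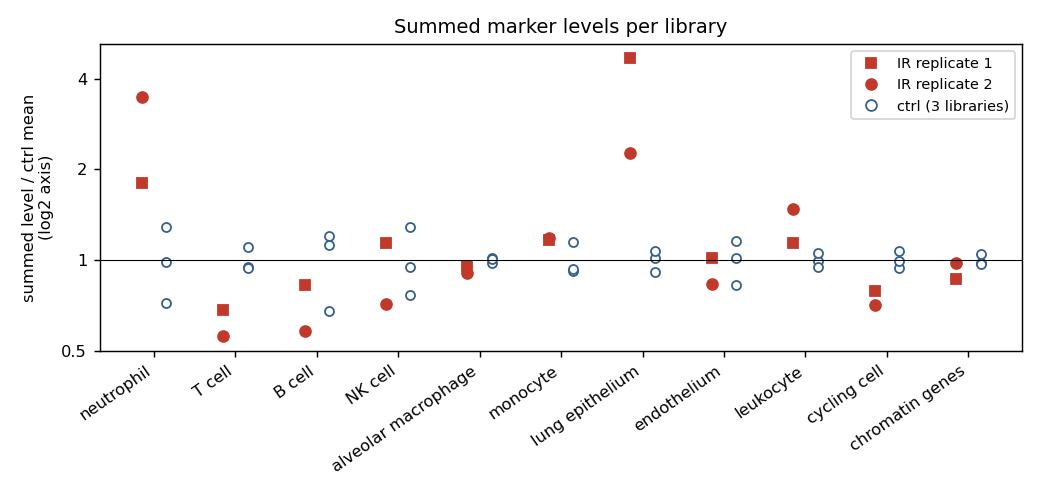
Summed scaled counts of each marker list and of the 110 chromatin genes in each library, divided by the ctrl mean (log2 axis). Filled red symbols are the 2 IR libraries and open blue circles the 3 ctrl libraries. In both IR libraries, neutrophil, monocyte, lung epithelium and leukocyte sums lie above every ctrl library. T cell, alveolar macrophage and cycling cell sums lie below. The chromatin gene sums overlap between groups.

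No chromatin gene passed the test of IR against ctrl. Of 110 members, 109 had a scaled count of at least 10 in at least 2 libraries and were tested; the other, Kdm4d, had 3.7 and 0.0 in IR and 0.0 to 13.1 in ctrl. In no class did a member pass. The limma test with Benjamini-Hochberg adjustment over all 12777 genes called 0 of the 109 at an adjusted p under 0.05, where 1.50% of all genes were called (1.14% higher and 0.360% lower). At an unadjusted p under 0.05 there were 22 of 109, which is 20.2% against 15.0% of all genes. Of these, 4 were higher in IR, against 7.76% of all genes, and 18 were lower, against 7.20%. The median log2 fold change of the chromatin genes was -0.24, against -0.05 for all genes tested, and 76 of 109 were negative (69.7%, against 53.2% of all genes). In 35 members (32.1%) both IR libraries lay below every ctrl library, where 16.3% of all genes did. In 8 members (7.34%) both lay above, where 15.2% of all genes did. The median deviation from the ctrl mean was -0.19 in each IR library, so this median did not rest on IR replicate 2. In bulk RNA, fewer cells of a type and less RNA per cell cannot be told apart.

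**Figure D2:**
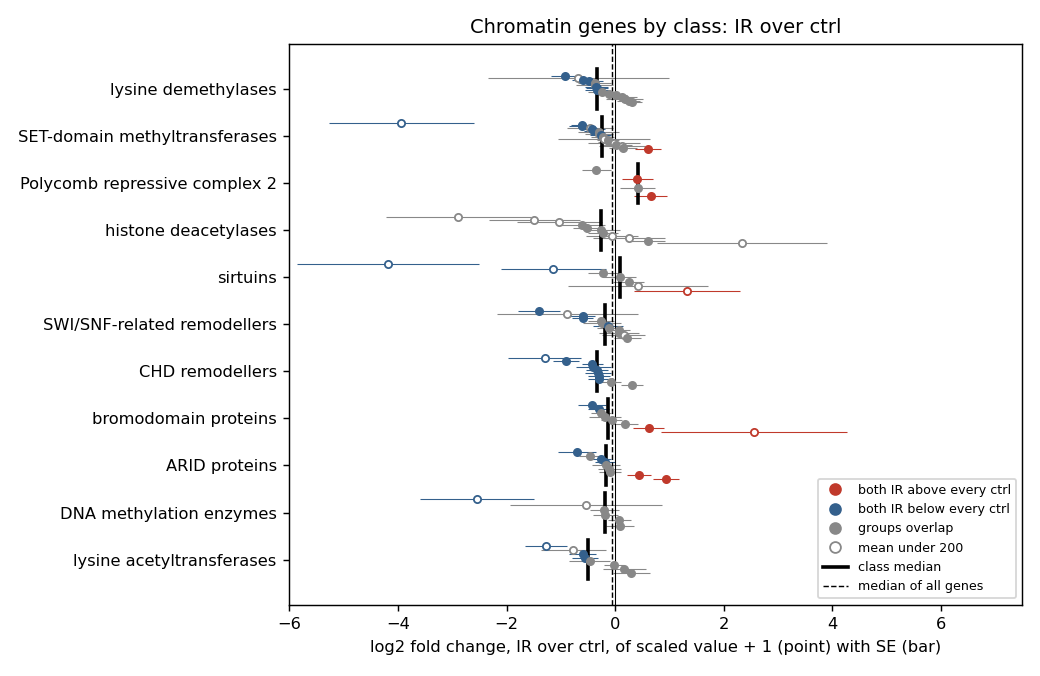
Log2 fold change (IR over ctrl) of the 109 chromatin genes tested, by class, with SE from limma; filled points have a mean of at least 200 scaled counts. Red and blue points are genes whose 2 IR libraries lie above or below all 3 ctrl libraries, black bars are class medians, and the dashed line is the median of all genes at -0.05.

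Scaling and libraries set how many chromatin genes passed. Scaled to library totals, which moved the median of all genes by about -0.12, 5 of 109 were called, all lower (4.59%, against 2.03% of all genes). These were Chd6, Kdm2b, Kmt2a, Smarca4 and Smarcd1. Relative to the median of all genes the chromatin genes stood at -0.19 under both scalings. Quantile normalization called 1 higher and 7 lower (7.34%, against 2.29%). Without IR replicate 1, 9 of 107 were called (8.41%, against 8.13% of all genes), 2 higher (Arid3a and Kdm6b) and 7 lower (Hdac5, Hdac6, Kmt2a, Setd4, Smarca4, Smarca5 and Smarcd1). Without IR replicate 2, only Chd6 was.

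The chromatin genes are long and well expressed. Their median summed exon length was 7356 bases, against 4388 for all genes with an annotated length, and their median level was 640 scaled counts against 147. With all genes divided into 4 equal bins of exon length, the median log2 fold change was 0.05 in the shortest bin, -0.02 and -0.06 in the next ones and -0.13 in the longest. The longest bin holds genes with at least 6805 exonic bases, and 59 of the 108 chromatin genes with a length fell in it. There, 25 members (42.4%) had both IR libraries below every ctrl library, against 22.8% of all genes. In the shorter 3 bins it was 10 of 49 members (20.4%), against 14.2%. Among genes with a mean of at least 200 and a length in those shorter bins, 5 of 29 members were lower in this sense (17.2%, against 14.1%). Their median log2 fold change was 0.02, against 0.05 for all such genes, and 3 of them had both IR libraries above ctrl (10.3%, against 22.1%). Among genes with a mean of at least 200 in the longest bin, 24 of 56 members were lower (42.9%, against 27.4%). There the median log2 fold change was -0.26, against -0.13 for all such genes. Exon length thus moved with the fold change over the whole table, and its part in the chromatin result was not tested.

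**Figure D3:**
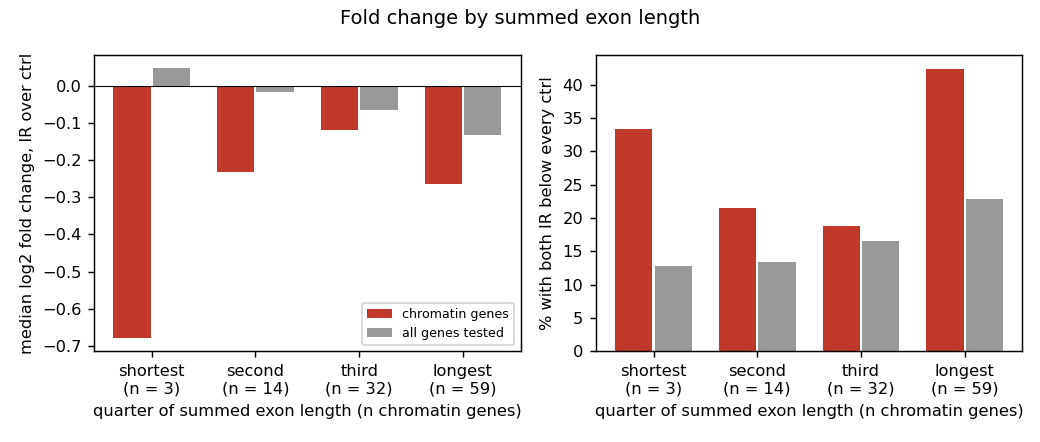
Median log2 fold change (left) and percentage of genes with both IR libraries below every ctrl library (right), by bin of summed exon length, 4 bins of equal size. Red bars are the chromatin genes, with their number under each pair of bars (3 in the shortest bin), and grey bars all genes tested; in the longest bin the right-hand values are 42.4% and 22.8%.

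The 250 bases before the transcription starts of the 5 genes called under library totals are printed because the products of 2 of them, KDM2B and KMT2A, carry a CXXC zinc finger, a fold that binds unmethylated CpG dinucleotides. Each run is the 250 bases before a RefSeq start (GRCm38.p6, the assembly of mm10), 5′ to 3′ on the gene's strand, with CpG dinucleotides in capitals. The genes' windows are chr5:122989100-122989349 and chr5:122900368-122900617 (Kdm2b, minus strand), chr2:161109087-161109336 (Chd6, minus), chr15:99702037-99702286 (Smarcd1, plus), chr9:21615919-21616168 (Smarca4, plus) and chr9:44881290-44881539 (Kmt2a, minus).
Kdm2b outer start: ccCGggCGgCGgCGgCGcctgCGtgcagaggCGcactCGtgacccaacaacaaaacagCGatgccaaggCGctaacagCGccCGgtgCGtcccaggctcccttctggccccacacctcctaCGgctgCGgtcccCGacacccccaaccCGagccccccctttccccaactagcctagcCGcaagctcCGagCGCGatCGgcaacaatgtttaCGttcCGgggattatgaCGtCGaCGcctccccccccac
Kdm2b inner start: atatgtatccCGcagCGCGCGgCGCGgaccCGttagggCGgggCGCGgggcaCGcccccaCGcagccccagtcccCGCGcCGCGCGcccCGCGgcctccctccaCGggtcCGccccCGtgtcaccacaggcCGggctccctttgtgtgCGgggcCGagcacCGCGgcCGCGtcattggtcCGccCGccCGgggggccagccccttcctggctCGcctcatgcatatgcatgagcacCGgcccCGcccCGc
Chd6: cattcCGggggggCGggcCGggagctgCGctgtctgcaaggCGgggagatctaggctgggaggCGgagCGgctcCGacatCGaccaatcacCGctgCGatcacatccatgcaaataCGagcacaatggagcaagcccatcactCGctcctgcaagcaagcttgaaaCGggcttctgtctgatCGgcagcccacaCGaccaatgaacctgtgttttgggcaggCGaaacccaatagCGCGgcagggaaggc
Smarcd1: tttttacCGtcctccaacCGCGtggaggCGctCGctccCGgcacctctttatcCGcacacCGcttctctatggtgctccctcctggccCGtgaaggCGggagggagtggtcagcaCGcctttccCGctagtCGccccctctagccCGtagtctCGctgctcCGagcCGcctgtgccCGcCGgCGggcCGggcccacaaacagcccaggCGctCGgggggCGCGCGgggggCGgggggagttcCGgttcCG
Smarca4: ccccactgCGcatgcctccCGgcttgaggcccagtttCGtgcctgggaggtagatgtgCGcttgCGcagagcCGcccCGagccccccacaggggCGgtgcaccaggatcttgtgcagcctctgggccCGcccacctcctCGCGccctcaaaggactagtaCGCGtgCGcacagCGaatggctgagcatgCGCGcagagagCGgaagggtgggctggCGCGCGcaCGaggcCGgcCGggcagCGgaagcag
Kmt2a: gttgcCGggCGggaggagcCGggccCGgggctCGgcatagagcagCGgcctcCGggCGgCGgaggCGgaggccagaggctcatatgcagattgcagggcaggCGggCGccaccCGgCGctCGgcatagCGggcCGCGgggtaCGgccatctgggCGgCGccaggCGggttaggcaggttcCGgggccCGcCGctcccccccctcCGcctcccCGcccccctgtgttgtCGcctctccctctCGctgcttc
They hold 27 and 36 CpG at the outer and inner starts of Kdm2b, 19 at Chd6, 29 at Smarcd1, 25 at Smarca4 and 29 at Kmt2a. The median was 18.5 over 86 chromatin genes with a RefSeq entry, taking the start nearest the annotated 5′ end, and 16 over 9541 genes tested. Gene counts do not separate the starts of Kdm2b, so the level of RNA from each was not measured.

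Among the lysine demethylases, which remove methyl groups from histones, 6 of 16 tested had both IR libraries below every ctrl library and 0 above. These were 37.5% and 0%, against 16.3% and 15.2% of all genes. At an unadjusted limma p under 0.05, 0 were higher and 2 lower (12.5%), and the median log2 fold change was -0.33. The share of all genes at such a p, 15.0%, is the one to compare for each class below. Kdm2b (chromosome 5, 122870665 to 122989823), which also recruits a Polycomb complex to CpG islands, had 396.3 and 449.7 scaled counts in IR, against 679.5, 1067.9 and 715.4 in ctrl. The groups did not overlap, and both IR libraries were close to each other. Its log2 fold change was -0.93 ± 0.26 (SE, adjusted p = 0.0723 in limma). Exons of Rnf34 on the other strand cover 7.60% of its exons, and the strand setting of the counting is not given. Kdm5a (chromosome 6, 120364124 to 120444574), which erases the methyl mark of active promoters, had 1471.3 and 1571.8 in IR, against 2097.6, 2741.4 and 2135.4 in ctrl. Its IR libraries again lay together below all ctrl libraries, with a log2 fold change of -0.60 ± 0.20 (SE, adjusted p = 0.148 in limma).

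Kdm6b, which erases the repressive Polycomb mark and is known to be induced in activated macrophages, had the highest level of all members, also per length. Per kilobase of exon it averaged 2506 scaled counts in IR and 1976 in ctrl, and the next were Chd4, with 657 in IR and 694 in ctrl, and Brd2, with 596 in IR and 719 in ctrl. Its values were 14036 and 20821 in IR, against 12579, 14376 and 14272 in ctrl. Only IR replicate 2 lay above ctrl, and the log2 fold change was 0.32 ± 0.19 (SE, adjusted p = 0.432 in limma). It was 0.60 without IR replicate 1, 0.03 without IR replicate 2, and turned to -0.23 under quantile normalization. Kdm6a, the X-linked gene of the same activity, had 639.4 and 686.7 in IR and 797.8 to 901.6 in ctrl, with the groups apart. The other members with groups apart were Kdm3a, Kdm3b and Kdm5c, with log2 fold changes of -0.48, -0.34 and -0.35. For Kdm1a, Kdm1b, Kdm2a, Kdm4a, Kdm4b, Kdm4c, Kdm5b, Kdm7a and Kdm8 the groups overlapped.

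Of 18 SET-domain methyltransferases, 6 had both IR libraries below every ctrl library and 1 had both above. Their shares were 33.3% and 5.56%, against 16.3% and 15.2% of all genes. At an unadjusted limma p under 0.05, 1 was higher and 4 were lower, and the median log2 fold change was -0.25. Kmt2a (chromosome 9, 44803355 to 44881296), the MLL methyltransferase that marks active promoters and sustains blood stem cells, had 2200.4 and 1693.7 in IR, against 2827.8, 3170.7 and 2868.4 in ctrl. The ctrl libraries were tightly grouped above both IR libraries. The log2 fold change was -0.61 ± 0.20 (SE, adjusted p = 0.130 in limma). Kmt2d (chromosome 15, 98831669 to 98871204), which marks enhancers, had 6204.8 and 6524.4 in IR, against 8222.4, 9187.9 and 7815.2 in ctrl. It was the most abundant gene of the class per length, with a log2 fold change of -0.40 ± 0.18 (SE, adjusted p = 0.292 in limma). Kmt2b, another promoter methyltransferase, had a log2 fold change of -0.42, while Kmt2c and Kmt2e, at -0.13 and -0.12, overlapped between groups.

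Kmt5a, Kmt5b and Kmt5c methylate a lysine of histone H4, and none of these genes passed. Kmt5a, which adds the first methyl group, had 1339.5 and 1037.2 in IR, against 924.6, 610.2 and 836.6 in ctrl, and was the member of this class with both IR libraries above ctrl. Kmt5b, which adds further methyl groups, had 741.2 and 601.8 in IR, against 1004.9, 1154.7 and 913.3 in ctrl. The log2 fold changes of Kmt5a and Kmt5b were 0.60 ± 0.24 and -0.61 ± 0.23 (SE, adjusted p = 0.233 and 0.205 in limma). Setd2, the main writer of the trimethyl mark laid down behind elongating polymerase, averaged 3348 ± 378 in IR (SD, n = 2) and 4022 ± 269 in ctrl (SD, n = 3), at a log2 fold change of -0.27. Setd4 was near the detection limit, at 9.3 and 0.0 in IR, against 38.9, 58.5 and 48.9 in ctrl (adjusted p = 0.149 in limma). The groups overlapped for Kmt5c (log2 fold change -0.02), Setd1a, Setd1b, Setd3, Setd5, Setd6, Setd7, Setdb1 and Setdb2. Setd3 is known as an actin methyltransferase.

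Polycomb repressive complex 2 lays down the repressive methyl mark. Of the classes it had the highest median log2 fold change, 0.41 over its 4 genes. In 2 of the 4 both IR libraries lay above every ctrl library, and in 0 below. These were 50% and 0%, against 15.2% and 16.3% of all genes. At an unadjusted limma p under 0.05, 1 was higher and 0 lower (25%). The class median deviated from the ctrl mean by 0.24 for IR replicate 1 but by 0.58 for IR replicate 2. Ezh1, a catalytic subunit typical of resting cells, had 427.2 and 651.5 in IR, against 328.7, 416.5 and 275.9 in ctrl, a log2 fold change of 0.65 ± 0.30 (SE, adjusted p = 0.315 in limma). IR replicate 1 was only just above the highest ctrl library. Ezh2, the catalytic subunit typical of dividing cells, had 305.7 and 420.3 in IR, against 311.8, 238.4 and 260.6 in ctrl, and the groups overlapped. Its log2 fold change was 0.42 ± 0.33 (SE, adjusted p = 0.588 in limma). The summed level of 11 cell cycle markers was 2049 and 1847 in IR and 2447 to 2784 in ctrl. Of these 11, 8 overlapped between groups, 3 had a positive log2 fold change and 0 were called. Their bearing on Ezh2 was not tested. Eed, which reads the mark, had a log2 fold change of 0.41 with both IR libraries above ctrl, and Suz12, the scaffold, of -0.35 with the groups overlapping.

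None of the 11 histone deacetylases had groups apart, where 16.3% of all genes lay below every ctrl library and 15.2% above. The median log2 fold change was -0.25. At an unadjusted limma p under 0.05, 0 were higher and 1 lower (9.09%). Hdac4, a deacetylase that shuttles between nucleus and cytoplasm, had 1662.0 and 3014.2 in IR, against 993.8, 2097.4 and 1512.6 in ctrl. The IR libraries straddled the highest ctrl library (log2 fold change 0.61 ± 0.31 SE, adjusted p = 0.385 in limma), and exons of Gm26720 on the other strand cover 22.4% of its exons. Hdac5, of the same subclass, had 1023.5 and 547.2 in IR, against 1120.6, 1309.9 and 832.9 in ctrl (log2 fold change -0.51 ± 0.27 SE, adjusted p = 0.370 in limma). Its value rested on IR replicate 2: it was -0.97 without IR replicate 1 (adjusted p = 0.0409 in limma) and -0.063 without IR replicate 2. Hdac1, a catalytic subunit of the NuRD, SIN3 and CoREST complexes, was listed low, at 38.3 and 20.1 in IR, against 64.2, 78.6 and 37.9 in ctrl. Of the 50-base windows in its transcripts, 35.5% also occur in transcripts of other genes, mostly Gm10093, and how such reads were counted is not given. Hdac6, which acts on tubulin, had 43.0 and 0.0 in IR and 29.5 to 65.7 in ctrl, and without IR replicate 1 it was called lower on that single 0.0. Hdac2, Hdac3, Hdac7, Hdac8, Hdac9, Hdac10 and Hdac11 had unadjusted p from limma of 0.0879 or more.

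Of 7 sirtuins, deacylases that use NAD, 1 had both IR libraries above and 2 below every ctrl library (median log2 fold change 0.08). That is 14.3% and 28.6%, against 15.2% and 16.3% of all genes. At an unadjusted limma p under 0.05, 0 were higher and 1 lower (14.3%). Sirt1, the best known nuclear sirtuin, had 440.3 and 543.0 in IR, against 596.7, 677.8 and 462.1 in ctrl, overlapping. Among the mitochondrial ones, Sirt4 had 0.0 and 1.6 in IR, against 61.0, 59.5 and 5.8 in ctrl, and Sirt3 had 36.4 and 74.0 in IR, against 9.3, 23.7 and 35.7 in ctrl. Both were low in at least 1 group, with an adjusted p from limma of 0.229 for Sirt4 and 0.557 for Sirt3. Sirt6, a nuclear sirtuin of DNA repair, was below every ctrl library in IR (19.6 and 15.9, against 25.6 to 63.4), and Sirt2, Sirt5 and Sirt7 overlapped.

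Of 12 SWI/SNF-related genes, 4 had both IR libraries below every ctrl library, and 0 had both above (median log2 fold change -0.19). The share below was 33.3%, against 16.3% of all genes, and 15.2% of all genes lay above. At an unadjusted limma p under 0.05, 0 were higher and 3 lower (25%). Smarca4 (chromosome 9, 21616169 to 21704230), a motor of the BAF complexes, had 2687.4 and 2205.6 in IR, against 3754.1, 3889.7 and 3408.6 in ctrl. It was the most abundant gene of the class per length, and its groups were well apart (log2 fold change -0.60 ± 0.19 SE, adjusted p = 0.130 in limma). Smarcd1 (chromosome 15, 99702129 to 99713991), an accessory subunit that links BAF to transcription factors, had 293.5 and 104.2 in IR, against 524.9, 538.1 and 351.9 in ctrl. Its log2 fold change was the largest in size among members with a mean of at least 200, at -1.40 ± 0.38 (SE, adjusted p = 0.0684 in limma); it was -2.14 without IR replicate 1 and -0.66 without IR replicate 2. Exons of Gm17349 on the other strand cover 12.7% of its exons. Smarca5, the motor of the ISWI complexes, had 814.2 and 564.0 in IR, against 1082.6, 1000.3 and 1003.1 in ctrl (log2 fold change -0.60 ± 0.23 SE, adjusted p = 0.219 in limma), and 28.2% of its 50-base windows also occur in other genes, mostly Gm13135. Smarce1, a DNA-binding subunit, was narrowly below ctrl at -0.13. Smarca2, the motor that can replace Smarca4, had a log2 fold change of -0.12, and it and Smarcb1, Smarcc1, Smarcc2, Smarcd2, Smarcd3, Smarcad1 and Smarcal1 overlapped.

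The CHD remodellers were the class with the highest share of separated genes: in 8 of 10 both IR libraries lay below every ctrl library, against 16.3% of all genes. At an unadjusted limma p under 0.05, 0 were higher and 2 lower. Chd6 (chromosome 2, 160946978 to 161109075) had 542.1 and 683.3 in IR, against 1015.9, 1452.5 and 1017.0 in ctrl. Both IR libraries were well below the lowest ctrl library, and the log2 fold change of -0.91 ± 0.24 (SE, adjusted p = 0.0530 in limma) was the closest to the threshold of all chromatin genes. Chd2, linked in humans to childhood epilepsy, had 2811.7 and 3556.4 in IR, against 4248.5, 4632.3 and 3834.9 in ctrl (log2 fold change -0.42 ± 0.19 SE, adjusted p = 0.309 in limma). Chd1, Chd3, Chd8, Chd9 and Chd1l, at log2 fold changes from -0.40 to -0.30, and Chd5, at -1.30 and under 150 scaled counts in every library, were the others. Chd4, the motor of the NuRD repressor complex and the most abundant of the class per length, averaged 5270 ± 572 in IR (SD, n = 2) and 5565 ± 255 in ctrl (SD, n = 3), overlapping. Chd7, mutated in CHARGE syndrome, had 5040.1 and 7785.2 in IR, against 4693.9, 5794.3 and 4808.1 in ctrl, a log2 fold change of 0.30. Without IR replicate 2 its value was -0.01. Summed exon lengths of the class ran from 4309 bases in Chd1l to 23148 in Chd9. All but Chd1l fell in the longest bin of exon length, where 22.8% of all genes had both IR libraries below every ctrl library.

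**Figure D4:**
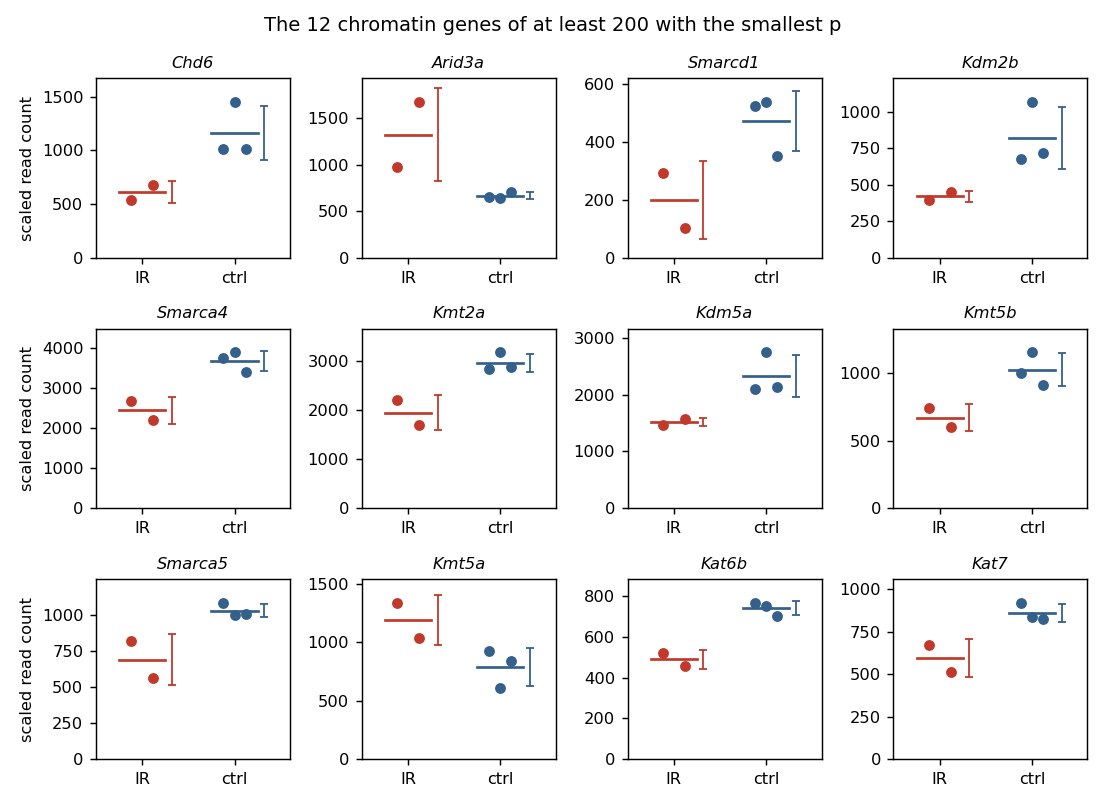
Scaled counts per library of the 12 chromatin genes with the smallest p among those with a mean of at least 200; points are libraries, lines group means and bars SD (IR n = 2, ctrl n = 3). In all 12 the groups do not overlap, which the choice by smallest p favours. Arid3a and Kmt5a are higher in IR and the other 10 lower. Of all 109 chromatin genes tested, 32.1% had both IR libraries below every ctrl library and 7.34% above, against 16.3% and 15.2% of all genes.

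Among 8 bromodomain genes, whose products bind acetylated histones, 2 had both IR libraries below and 2 above every ctrl library. Each share was 25%, against 16.3% below and 15.2% above for all genes. At an unadjusted limma p under 0.05, 1 was higher and 0 lower (12.5%), and the median log2 fold change was -0.13. The BET proteins carry paused polymerase into elongation. Brd3, a BET protein, had 541.2 and 518.6 in IR, against 351.6, 289.6 and 403.7 in ctrl, and its IR libraries nearly coincided above ctrl (log2 fold change 0.62 ± 0.29 SE, adjusted p = 0.315 in limma). Brd2, another BET protein, had 4485.8 and 4838.2 in IR, against 6125.6, 4759.3 and 6001.0 in ctrl. The groups overlapped, with a log2 fold change of -0.26. Brd8, a subunit of the TIP60 acetyltransferase complex, and Brd1, a scaffold of acetyltransferases, were lower at -0.43 and -0.30 with the groups apart. Brd8dc, at 27.1 and 20.2 in IR and 0.0 to 8.7 in ctrl, was separated at low values, and Brd7 and Brd9 overlapped.

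ARID proteins bind DNA through a shared domain. Of 9, 3 had both IR libraries below and 2 above every ctrl library (median log2 fold change -0.17). This was 33.3% and 22.2%, against 16.3% and 15.2% of all genes. At an unadjusted limma p under 0.05, 1 was higher and 1 lower (22.2%). Arid3a (chromosome 10, 79927043 to 79955018), first known as an activator of immunoglobulin heavy chain transcription in B cells, had 970.3 and 1671.9 in IR, against 649.0, 640.3 and 708.1 in ctrl. All ctrl libraries lay close together below both IR libraries, and IR replicate 2 was much the higher. The log2 fold change was 0.94 ± 0.25 (SE, adjusted p = 0.0535 in limma), and without IR replicate 1 it was 1.33 (adjusted p = 0.00396 in limma) and without IR replicate 2 it was 0.54 (adjusted p = 0.514 in limma). In the same libraries the B cell marker sum was not above ctrl, as given above, and the neutrophil sum, among others, was. Whether Arid3a follows any cell type was not tested. Arid5b, partner of the demethylase Phf2, had 1153.5 and 1232.2 in IR, against 892.4, 847.7 and 908.9 in ctrl (log2 fold change 0.43). Arid5a, an RNA-binding protein that stabilises Il6 mRNA, had 2877.1 and 2701.5 in IR, against 2990.1, 3708.8 and 3370.6 in ctrl (log2 fold change -0.26 ± 0.19 SE, adjusted p = 0.555 in limma). Arid1a, a BAF subunit, averaged 5303 ± 276 in IR (SD, n = 2) and 6059 ± 449 in ctrl (SD, n = 3), narrowly apart. Arid3b was lower at -0.70, while Arid4b (-0.46), Arid1b, Arid2 and Arid4a overlapped.

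Of the 6 DNA methylation enzymes, 5 had overlapping groups and 1, Dnmt3b, was below every ctrl library in IR (16.7%, against 16.3% of all genes). At an unadjusted limma p under 0.05, 0 were higher and 1 lower (16.7%). Dnmt1, which copies methylation after replication, averaged 678 ± 53.6 in IR (SD, n = 2) and 769 ± 69.7 in ctrl (SD, n = 3). Dnmt3a, which sets new methylation, averaged 549 ± 17.0 in IR and 518 ± 31.5 in ctrl. Tet2, which oxidises methylcytosine and is often mutated in clonal blood disorders, had 792.6 and 1488.6 in IR, against 1010.8, 1619.6 and 1184.8 in ctrl, and Tet3 averaged 1354 ± 245 in IR and 1277 ± 146 in ctrl. The log2 fold changes of these 4 lay between -0.20 and 0.08, with SE of 0.22 to 0.26, and their adjusted p from limma between 0.770 and 0.914. Dnmt3b had 10.3 and 5.8 in IR, against 42.2, 69.4 and 43.0 in ctrl, apart but low (adjusted p = 0.241 in limma), and Tet1 had 1.6 to 86.9 over all libraries.

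Of 8 lysine acetyltransferases, 3 were below ctrl in both IR libraries and 0 above (37.5% and 0%, against 16.3% and 15.2% of all genes). At an unadjusted limma p under 0.05, 0 were higher and 3 lower (37.5%). The class had the lowest class median, a log2 fold change of -0.51. That rank rested on IR replicate 2: the median deviation of the class from the ctrl mean was -0.67 there and -0.23 in IR replicate 1, where the demethylases stood at -0.38 and the SET-domain methyltransferases at -0.29. Kat14, of the ATAC coactivator complex, had 105.6 and 105.0 in IR, against 250.2, 273.1 and 244.6 in ctrl. Its IR values were nearly equal and under every ctrl value, with a log2 fold change of -1.27 ± 0.39 (SE, adjusted p = 0.108 in limma), and 14.7% of its exons overlap other genes on the same strand. Kat6b had 521.6 and 457.2 in IR, against 767.4, 750.9 and 700.8 in ctrl (log2 fold change -0.60 ± 0.25 SE, adjusted p = 0.245 in limma). Its close relative Kat6a had 3080.9 and 2797.3 in IR, against 2840.5, 3102.2 and 3017.3 in ctrl, an overlap with a log2 fold change of -0.02. Kat7, which acetylates histone H3 and H4 tails, had 672.1 and 513.6 in IR and 822.8 to 921.2 in ctrl. Kat2a, Kat2b, Kat5 and Kat8 overlapped, Kat2a with 341.2 and 205.9 in IR and 158.0 to 373.6 in ctrl.

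Related genes were also compared as ratios within each library. Of 28 paralogue pairs, 12 had IR log2 ratios outside the ctrl range (42.9%), and 9 of those reached 0.1, the smallest p that the 10 splits of 5 libraries allow (exact permutation test, two-sided, adjusted p = 0.311). No pair could therefore pass, and no pairs of other genes were measured for comparison. Under quantile normalization, tried after seeing the data, the difference between groups kept its sign in all 12. The log2 ratio of Smarcd1 to Smarcd2 averaged -2.03 ± 0.74 in IR (SD, n = 2) and -0.41 ± 0.43 in ctrl (SD, n = 3), the widest gap among these 9. That of Arid5a to Arid5b averaged 1.22 ± 0.13 in IR and 1.92 ± 0.19 in ctrl. That of Kdm6a to Kdm6b averaged -4.69 ± 0.33 in IR and -4.04 ± 0.10 in ctrl, a difference of -0.64 that was -0.12 under quantile normalization. The log2 ratio of Kat6a to Kat6b was 2.56 and 2.61 in IR, against 1.89 to 2.10 in ctrl, so it was higher in both IR libraries. That of Kmt2a to Kmt2b was 1.31 and 1.28 in IR, against 1.42 to 1.55 in ctrl. That of Ezh1 to Ezh2 was 0.48 and 0.63 in IR and 0.08 to 0.80 in ctrl, overlapping.

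**Figure D5:**
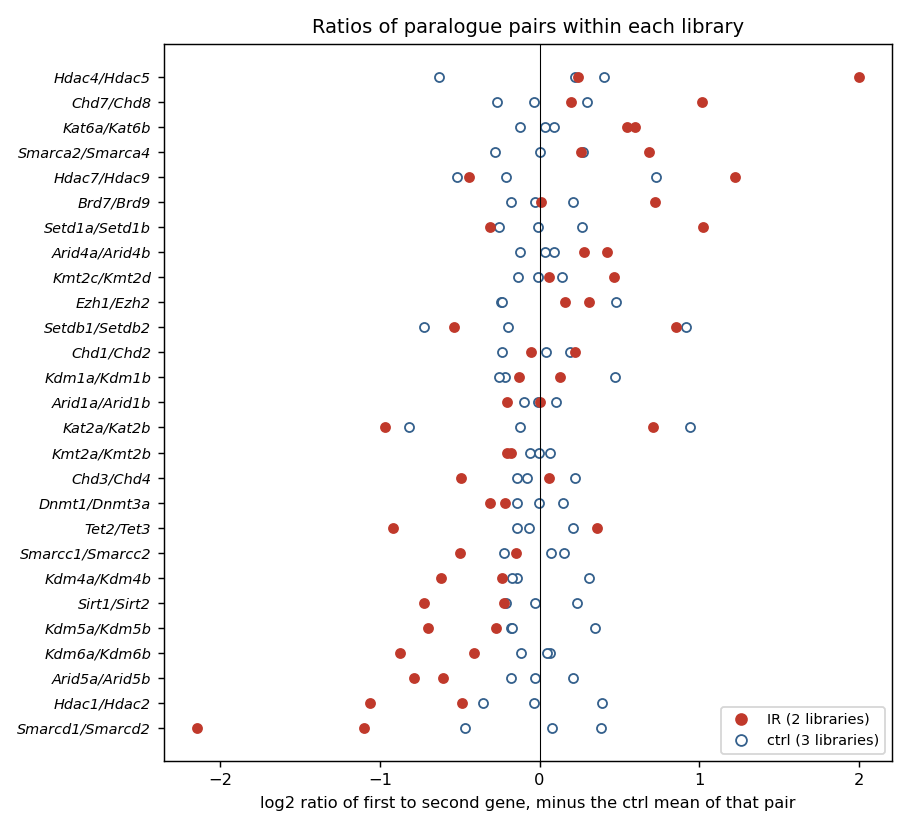
Log2 ratio of the first to the second gene of 27 paralogue pairs in each library, minus the pair's ctrl mean; filled red points are IR and open blue points ctrl libraries. Pairs run from the most positive IR mean (Hdac4/Hdac5) at the top to the most negative (Smarcd1/Smarcd2) at the bottom, and in 11 pairs both IR points lie outside the ctrl range.

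Partners of these enzymes that carry other names were counted in the same way. Of 111 partners tested in 6 lists, 0 passed in limma and 9 had an unadjusted p under 0.05 (8.11%, below the 15.0% of all genes and the 20.2% of the chromatin genes), 2 of them higher and 7 lower in IR. In all, 30 had both IR libraries below every ctrl library (against 16.3% of all genes) and 14 above (against 15.2%); the median log2 fold change was -0.18. In the INO80, SRCAP and TIP60 list 9 of 18 were below (median -0.22), and in the list of NuRD, SIN3, CoREST and NCoR partners 4 of 20 were below and 6 above (median 0.13). Sin3a, a scaffold for Hdac1 and Hdac2, had 856.2 and 742.2 in IR, against 1141.8, 1177.5 and 1148.4 in ctrl (log2 fold change -0.54, adjusted p = 0.241 in limma). Hat1, an acetyltransferase of newly made histones, had 254.3 and 235.4 in IR, against 117.4, 152.5 and 90.5 in ctrl (1.05, adjusted p = 0.238 in limma). Both genes were named after their values were seen.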

How the data were processed

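RNA from CD45-sorted mouse lung cells had been made into libraries with a low-input stranded total RNA kit, per the labels' protocols. HISAT2, HTSeq and the build mm10 are named without versions or roles, per the submitters' processing notes; annotation, strand setting and filter were not given in the sources used here. Values in the deposited table are a signal, read counts already scaled by the authors in a way that is not stated. They have 1 decimal, with smallest steps of 0.7 to 0.9, and did not resolve into whole reads in every library, so no count-based test was run. Counting error cannot be derived from them. The 12777 genes reaching 10 in 2 or more libraries entered limma 3.58.1 under R 4.3.3 (with statmod 1.5.0) on log2(value + 1), with mean trend and robust options, IR against ctrl without covariates, two-sided, adjusted by Benjamini-Hochberg over all genes and called under 0.05. Fold changes understate low genes. Libraries were grouped by the treatment label; replicate numbers follow accession order. Members were matched to GENCODE vM21 (GRCm38) by symbol, 109 of 110 with 1 match, for coordinates, union exon length, shared 50-base windows and overlapping exons. The fit was tested on simulated data. Members, classes and lists were chosen with earlier results of these data known. Named genes were those called, per class the 2 with the smallest p and the most abundant, and 17 chosen for roles in leukocytes, of which Kdm5d is not analysed here and another is not reported here; others are named where groups were apart. No set test was run.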

Additional observations from a re-analysis of the deposited data

How the results depend on the processing

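The counts of chromatin genes called depended on scaling and on single libraries. None was called in the main analysis (0 higher, 0 lower), nor with median-ratio factors, a pseudocount of 0.5, either other filter, robust estimation off or the mean trend off. The last setting called 0 genes in the whole table. There, 7 of 109 chromatin genes had an unadjusted limma p under 0.05, a smaller share than the 9.74% of all genes. Scaling to library totals called 5 lower, with a median log2 fold change of -0.36. Quantile normalization called 1 higher and 7 lower, with 293 genes called in all. A pseudocount of 5 called 1 higher (Arid3a) and 2 lower (Chd6 and Smarcd1), and array weights called 1 higher (Arid3a). With each library left out in turn, 0 to 2 were called higher, 0 to 7 lower and 19 to 1006 genes in all; the median log2 fold change ran from -0.26 to -0.19. For all genes called, leaving out ctrl replicates 1, 2 and 3 gave 19, 23 and 95; leaving out IR replicate 1 gave 1006 and IR replicate 2 gave 96, the lone IR library being assumed to vary like ctrl. Members with IR above every ctrl library numbered 9 to 21 with a library left out (8.26% to 19.6%, against 20.1% to 30.5% of all genes) and those below 38 to 54 (for example 35.2% without ctrl replicate 1 and 49.5% without IR replicate 1, against 22.0% and 35.9%), a check chosen after seeing the data; fewer libraries make separation easier by construction. Of 595 single-gene values under alternatives for 40 named genes, 557 kept direction and side of the threshold, 26 passed it (12 genes) and 12 turned sign. With a library left out, log2 fold changes turned sign in 6 genes, over ranges of -0.19 to 0.029 (Chd4), -0.010 to 0.62 (Chd7), -0.19 to 0.53 (Kat2a), -0.093 to 0.046 (Kat6a), -0.65 to 0.26 (Tet2) and -0.11 to 0.26 (Tet3). Library totals gave -0.038 for Dnmt3a and -0.042 for Tet3, and quantile normalization -0.23 for Kdm6b; the cause was not tested. No paired analysis was possible because the labels give no replicate numbers that the groups share.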

Other observations

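In 16 of the 109 annotated chromatin genes at least 10% of the 50-base windows of their transcripts also occur in transcripts of other genes. The largest shares were 51.2% in Setd1a, mostly with Gm49388, 44.0% in Smarcd3 with Chpf2, 35.5% in Hdac1 with Gm10093, 28.2% in Smarca5 with Gm13135 and 24.2% in Kdm3b with Gm26538. Per kilobase of exon, Hdac1 averaged 8.48 scaled counts in IR and 17.5 in ctrl. Hdac2, its closest paralogue, had 251.4 and 201.7 scaled counts in IR and 227.8 to 306.0 in ctrl over a longer transcript model. How reads shared between genes were counted is not given in the sources used here.

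Promoter letters were compared between chromatin genes and all genes tested over the same 250 bases before a RefSeq start. Both strands were searched. The CCAAT box (CCAAT) was in 37.2% of 86 chromatin gene promoters and in 36.2% of 9541 promoters. The NRF1 motif was in 8.14% and 8.25%, the SP/KLF motif GGGGCGGGG in 18.6% and 19.9%, and the ETS motif CCGGAAGT in 3.49% and 6.10%. Fewer than 10 CpG dinucleotides were found in 13 of the 86 (15.1%), against 26.3% of all, among them Dnmt1 with 2 and Hdac9, Kdm4c and Setd5 with 0 each. For each gene only the start nearest the annotated 5′ end was taken. Other starts can differ, and which starts these cells use was not measured.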
